A study of Homo sapiens with 6 samples.

Results

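The gamma-tubulin ring complex is the particle from which most microtubules of an animal cell grow. Gamma-tubulin, encoded by TUBG1 and TUBG2 in human, sits in a ring held by the gamma-tubulin complex proteins TUBGCP2 to TUBGCP6, and the ring presents a template onto which alpha- and beta-tubulin dimers add. The small proteins MZT1, MZT2A and MZT2B bind the complex proteins, and NEDD1 brings the assembled complex to centrosomes and spindles. Of the 58780 genes in the deposited tables, 10 were followed here: TUBG1, TUBG2, TUBGCP2, TUBGCP3, TUBGCP4, TUBGCP5, TUBGCP6, NEDD1, MZT1 and MZT2B. They were picked by symbol, with their response in these same libraries already known, so their own differences are given below as a description, with no p-value.

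RNA-seq was run on HCT116, an established human colorectal carcinoma line, in 3 biological replicates given auxin for 16 h and 3 given DMSO, the solvent. Auxin is a plant hormone used to trigger the breakdown of a protein fused to a degron. The labels name neither the protein targeted here nor any tagged allele, driver or clone, and they list no auxin-treated cells without a degron, so an effect of auxin itself and an effect of losing a target cannot be told apart. The series title is about networks around nuclear speckles, which are nuclear bodies rich in splicing factors.

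The expected counts of a library summed to between 234035407 and 625892507, with replicate 1 the deepest in each group. Of 7 epithelial markers, 6 were at or above 1 TPM in every library, and VIL1, a marker of the intestinal brush border, was near 0 (0 to 0.02 TPM). The 7 markers summed to 1730 to 2380 TPM in DMSO and 2210 to 2650 TPM after auxin. Of 6 markers of other cell types, 5 were below 1 TPM in every library and PTPRC, the leukocyte marker, was listed at 0 TPM in all. Their sum was 1.31 to 2.65 TPM in DMSO and 0.58 to 1.39 TPM after auxin, nearly all of it from COL1A1, a fibroblast collagen (0.54 to 2.61 TPM), and its part in the results below was not tested. Of 19725 genes tested with edgeR's quasi-likelihood test, 5010 were called higher and 5311 lower after auxin at a Benjamini-Hochberg adjusted p under 0.05. The fit held no term for the replicate number. With that number as a block, 7005 were called higher and 6789 lower. These RNA levels are averages over bulk cultures, in which fewer cells of a kind and less RNA per cell cannot be told apart.

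All 10 genes passed the filter on low counts, and they moved in different directions. After auxin, 3 were called higher (TUBG2, TUBGCP4 and TUBGCP5), 6 lower (TUBG1, TUBGCP2, TUBGCP6, NEDD1, MZT1 and MZT2B) and 1 (TUBGCP3) was not called. Over all genes tested, 25.4% were called higher and 26.9% lower, 52.3% in either direction. The same 9 genes had levels that did not overlap between the groups, in CPM (rounded counts scaled by TMM-adjusted library size). The groups of 60.3% of all genes did not overlap, 30.0% with auxin higher and 30.4% with auxin lower. The contrast was used to choose the genes, so nothing is read from these counts. The median log2 fold change of the 10 was -0.30, beside 0.02 over all genes tested, and the range ran from -3.68 to 1.08.

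**Figure D1:**
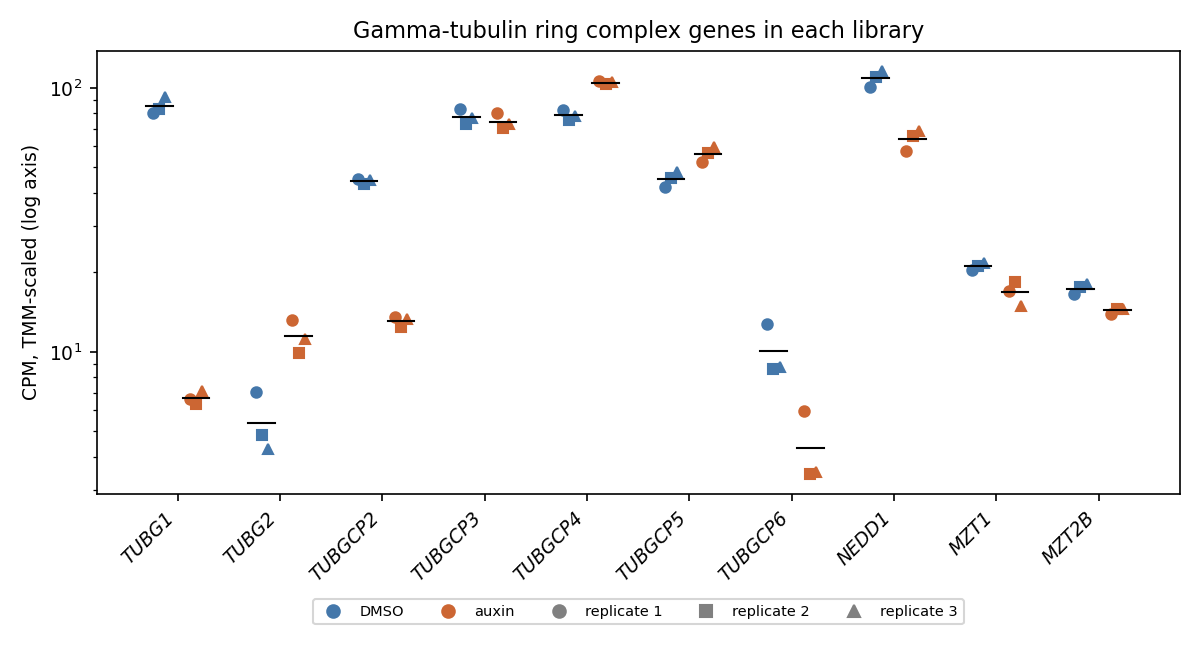
Level of each of the 10 genes in each library, in CPM with TMM scaling on a log axis, with DMSO in blue, auxin in orange, marker shape for the replicate number and a line at the group mean. TUBG1 drops from between 80.7 and 92.7 CPM to between 6.33 and 7.13 CPM, while the groups of TUBGCP3 overlap.

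TUBG1, the gamma-tubulin of most dividing cells (gene ENSG00000131462.7, GRCh38 chr17:42609676-42615234, plus strand), showed the largest difference of the 10. Its level was 80.7, 83.5 and 92.7 CPM in the DMSO libraries and 6.61, 6.33 and 7.13 CPM in the auxin libraries, a mean of 85.6 ± 6.30 against 6.69 ± 0.409 (SD, n = 3 each). The 3 auxin libraries lay close together, far under every DMSO library. The log2 fold change was -3.68 (SE 0.08), 12.8-fold lower, which placed TUBG1 at rank 67 from the lowest among 19725 genes. Ratios between libraries of the same replicate number were -3.61, -3.72 and -3.70 on the log2 scale.

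TUBG2, the sister gene that is known for its expression in brain (ENSG00000037042.8, chr17:42659305-42667006, plus strand), lies 44070 bases downstream of TUBG1 with 2 annotated genes between them. It was measured at 7.03, 4.86 and 4.30 CPM in the DMSO libraries and at 13.3, 9.95 and 11.2 CPM in the auxin libraries, so the groups did not overlap. The means were 5.40 ± 1.44 and 11.5 ± 1.68 CPM, and the log2 fold change was 1.08 (SE 0.20), 2.12-fold higher, or 0.60 with limma on log2(TPM + 1). Replicate 1 was the highest library of each group. On the length-scaled TPM scale the groups overlapped, with 7.30, 3.38 and 3.00 TPM in DMSO and 9.57, 5.49 and 6.45 TPM after auxin, and each auxin library was above the DMSO library of its own number.

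TPM allows levels of different genes to be compared, since it divides by length. TUBG1 made up 90.9%, 93.8% and 95.1% of the summed TPM of both gamma-tubulin genes in DMSO, and 34.9%, 40.9% and 41.5% after auxin. The mean share was 93.3 ± 2.2% (SD, n = 3) in the DMSO libraries against 39.1 ± 3.7% (SD, n = 3) after auxin, a difference of -54.2 percentage points. Summed over all transcripts of each gene, TUBG1 was thus the major gamma-tubulin gene in each DMSO library and the minor one in each auxin library. Over the coding forms alone, given below, it was not the minor one. Summed over both genes, the level was 5.02-fold lower after auxin (18.1 ± 1.80 CPM) than in DMSO (91.0 ± 5.20 CPM).

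The coding regions of TUBG1 and TUBG2 are close relatives. In the principal coding transcripts TUBG1-201 and TUBG2-201 both span 1353 bases, of which 94.7% are identical position by position and 72 differ. The longest identical stretch is 215 bases, and 30.3% of the 50-base windows of TUBG1-201 also occur in a transcript of another gene. TUBG2 holds 454 of these 1562 windows. The deposited posterior SD of the gene's count, the authors' measure of how well reads could be assigned, was at most 0.442% of the count for TUBG1 and 0.886% for TUBG2. Exon 5, which the transcripts TUBG1-204 and TUBG2-202 described below lack, is shown for both genes from GENCODE release 29 (GRCh38, plus strand). It spans chr17:42612427-42612506 in TUBG1 and chr17:42662973-42663052 in TUBG2, and capitals mark the 11 of 80 positions at which the genes differ.
TUBG1 exon 5: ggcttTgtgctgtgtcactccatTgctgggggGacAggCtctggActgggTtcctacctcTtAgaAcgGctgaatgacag
TUBG2 exon 5: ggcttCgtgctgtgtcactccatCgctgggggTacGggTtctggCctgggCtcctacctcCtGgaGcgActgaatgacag

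Within TUBG1, the coding 11-exon transcript TUBG1-201 held 97.8%, 97.8% and 98.5% of the gene's TPM in DMSO and 83.6%, 82.8% and 83.0% after auxin. It was at 84.9 ± 6.38 CPM in DMSO against 5.93 ± 0.383 CPM with auxin, 14.3-fold lower. TUBG1-204, annotated as a target of nonsense-mediated decay, the pathway that removes RNAs with an early stop codon, was at a share of 0.0% in every DMSO library and at 5.8%, 7.5% and 6.8% after auxin. Its estimated counts were 5.41, 5.14 and 10.37 in DMSO, no more than about their posterior SDs (6.92, 6.65 and 8.37), and 245.16, 111.27 and 106.47 after auxin, with posterior SDs of 24.6, 15.8 and 16.0. The transcript was thus at or near 0 in DMSO and above its assignment error in each auxin library. In level it reached 0.379, 0.466 and 0.481 CPM after auxin, beside the 5.93 CPM of TUBG1-201.

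TUBG1-204 has 10 exons and lacks exon 5. The 80 bases leave a remainder of 2 on division by 3, so joining exon 4 to exon 6 shifts the reading frame. The spliced junction is shown with 30 bases on either side, between chr17:42612114 and chr17:42612976, with the stop codon of the shifted frame in capitals. It is codon 136, where TUBG1-201 encodes 451 codons, and it ends 9 bases after the junction.
TUBG1-204 junction: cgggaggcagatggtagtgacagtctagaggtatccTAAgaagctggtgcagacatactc

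The remaining TUBG1 transcripts were minor. TUBG1-203, a retained-intron form, had a share of 1.1 ± 0.3% in DMSO and 6.2 ± 2.0% in the auxin libraries. Its level went from 0.460 ± 0.114 to 0.224 ± 0.0683 CPM, so the larger share went with a lower level. TUBG1-202, also a retained-intron form, had shares of 0.4 ± 0.3% and 2.7 ± 1.1%, at levels of 0.0806 ± 0.0549 and 0.0517 ± 0.0254 CPM.

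In TUBG2 the larger part of the difference lay in a transcript annotated without a coding region. TUBG2-202, a 9-exon retained-intron form, had 17.1%, 13.6% and 19.4% of the gene's TPM in DMSO and 43.0%, 51.4% and 50.5% after auxin, a difference of 31.7 percentage points. Its level was 1.57, 0.846 and 1.03 CPM in the DMSO libraries against 6.33, 5.58 and 6.07 CPM with auxin, with means of 1.15 ± 0.375 and 5.99 ± 0.381 CPM, 5.22-fold higher. TUBG2-202 retains intron 1 and lacks exon 5, the counterpart of the exon that TUBG1-204 lacks. Which of these features carried the difference was not tested. The coding transcript TUBG2-201 was at 3.96, 3.06 and 2.56 CPM in DMSO and 5.93, 3.75 and 4.49 CPM after auxin. These groups overlapped, and the share of TUBG2-201 in the gene was 47.2 ± 3.2% in DMSO and 37.8 ± 2.9% after auxin. TUBG2-203, a 2-exon retained-intron form, was lower in share, at 36.1 ± 3.7% and 13.9 ± 2.3%.

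Counted over the coding forms TUBG1-201 and TUBG2-201 alone, the TUBG1 share of the TPM was 95.7%, 96.8% and 97.5% in DMSO and 52.3%, 62.1% and 60.9% after auxin. On this count TUBG1-201 was above TUBG2-201 in every library, unlike the share over whole genes. The mean was 96.7 ± 0.9% in DMSO and 58.5 ± 5.3% after auxin.

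**Figure D2:**
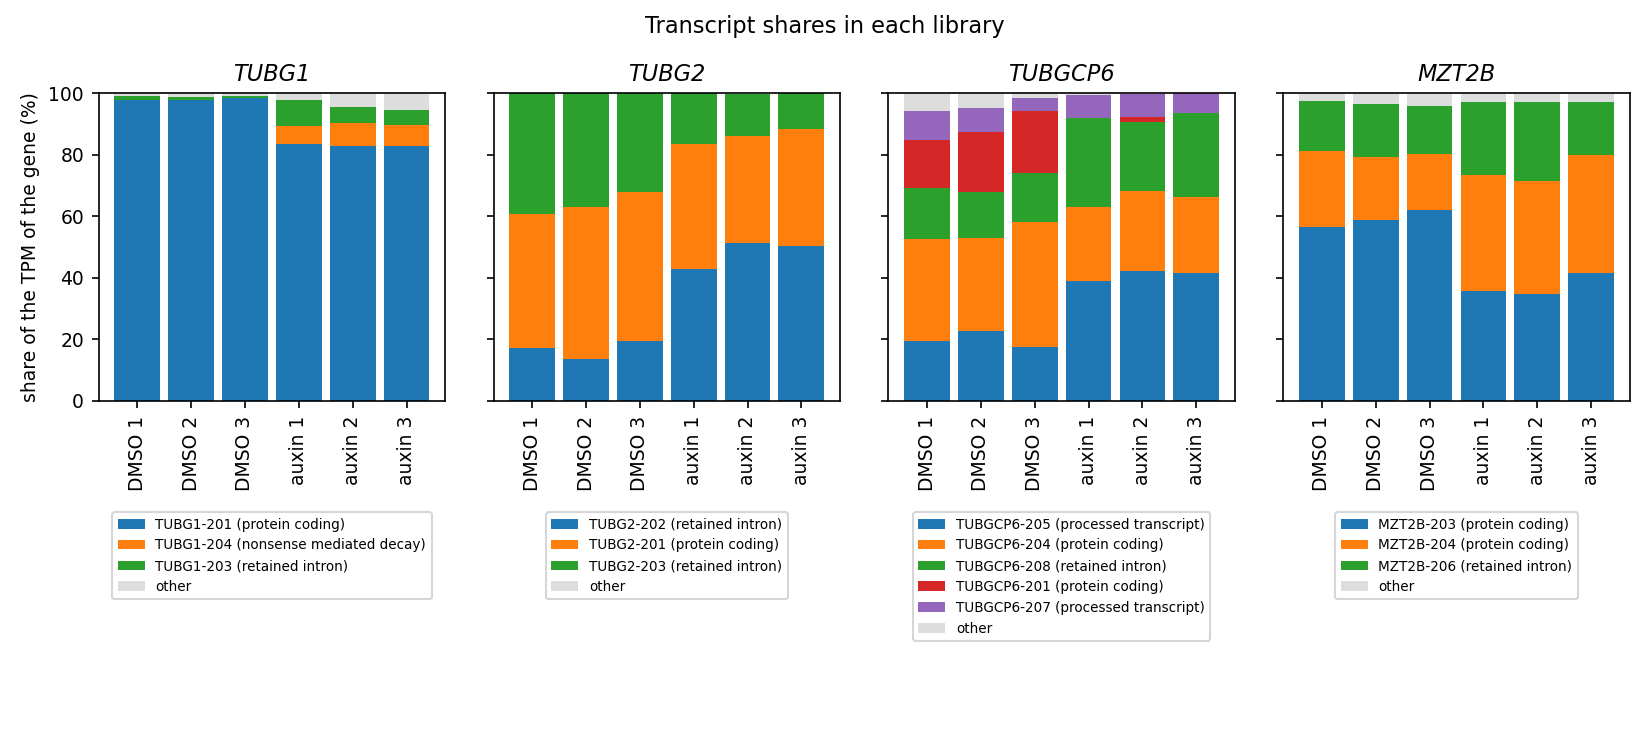
Share of each annotated transcript in the TPM of its gene (percent, stacked to 100) in each library, for the 4 genes with a shift of at least 10 percentage points, with transcripts under the plotted ones pooled in grey. TUBG2-202 goes from between 13.6% and 19.4% in DMSO to between 43.0% and 51.4% after auxin, and TUBG1-204 is visible in the auxin libraries alone.

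TUBGCP2 and TUBGCP3 encode the core pair that forms the small complex with gamma-tubulin, the repeating unit of the ring, and they differed from each other in response. TUBGCP2 (ENSG00000130640.13, chr10:133278630-133312337, minus strand) was at 45.1, 43.3 and 44.8 CPM in DMSO and at 13.6, 12.5 and 13.3 CPM after auxin. All auxin libraries were well under all DMSO libraries, with a log2 fold change of -1.76 (SE 0.06), 3.38-fold lower. TUBGCP3 (ENSG00000126216.14, chr13:112485005-112588205, minus strand) was at 83.2, 73.0 and 76.9 CPM in DMSO and at 80.3, 70.5 and 72.7 CPM after auxin. Its groups overlapped, and the log2 fold change was -0.06 (SE 0.07), with 0.06 under upper-quartile scaling.

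In TPM, the ratio of TUBGCP2 to TUBGCP3 went from 0.563 ± 0.0374 in DMSO to 0.184 ± 0.00495 with auxin (SD over 3 libraries). The ratio of summed gamma-tubulin TPM to the summed TPM of TUBGCP2 and TUBGCP3 was 1.59, 1.76 and 1.88 in DMSO and 0.476, 0.450 and 0.486 after auxin. Gamma-tubulin RNA was therefore above that of the core pair in every DMSO library and below it in every auxin library, on this scale.

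TUBGCP4, TUBGCP5 and TUBGCP6 encode the larger-ring proteins, which are found in the full ring and not in the small complex. TUBGCP4 (ENSG00000137822.12, chr15:43369221-43409771, plus strand) was at 82.5, 75.7 and 78.4 CPM in DMSO and at 105.9, 103.2 and 104.9 CPM after auxin, 1.33-fold higher (log2 fold change 0.41, SE 0.05). TUBGCP5 (ENSG00000275835.4, chr15:22983192-23039673, minus strand) was at 42.1, 45.8 and 47.8 CPM and at 52.2, 56.5 and 59.7 CPM, a log2 fold change of 0.31 (SE 0.07), 1.24-fold higher. Neither gene's groups overlapped, and both differences were small beside that of TUBG1. With GC correction they were 0.23 and 0.16 on the log2 scale.

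TUBGCP6 (ENSG00000128159.11, chr22:50217689-50244992, minus strand) went the other way. It was at 12.8, 8.61 and 8.79 CPM in DMSO and at 5.96, 3.45 and 3.52 CPM after auxin, with the deep replicate 1 the highest library of both groups. The log2 fold change was -1.22 (SE 0.26), 2.33-fold lower (-0.68 with GC correction), and the ratios within replicate numbers were -1.10, -1.32 and -1.32 on the log2 scale.

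The coding transcript TUBGCP6-201, with 25 exons, held 15.6%, 19.8% and 20.1% of the gene's TPM in DMSO and 0.0%, 1.7% and 0.0% after auxin. Its estimated counts were 1482.6, 603.15 and 548.3 in DMSO, with posterior SDs of at most 112, and 0, 21.03 and 0 after auxin, with posterior SDs of at most 15.6. It was thus well above its assignment error in DMSO and at or near 0 after auxin. TUBGCP6-204, the other 25-exon coding form, had a share of 34.7 ± 5.5% in DMSO and 25.1 ± 1.0% after auxin and was at 4.55 ± 1.07 and 1.69 ± 0.486 CPM. Apart from their ends, the 2 forms differ by an extension of exon 16 in TUBGCP6-204, 59 bases at chr22:50220192-50220250 on the minus strand, which leave a remainder of 2 on division by 3. They are shown as the interior sequence that the form detected in both groups has and TUBGCP6-201 lacks.
TUBGCP6-204 extension of exon 16: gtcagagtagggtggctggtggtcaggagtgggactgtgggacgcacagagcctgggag

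Of the 4 forms of TUBGCP6 annotated without a coding region, 2 had a higher share after auxin. TUBGCP6-205, a processed transcript without a coding region, had 20.0 ± 2.7% in DMSO and 40.9 ± 1.7% after auxin, while its level was 0.690 ± 0.189 and 0.716 ± 0.197 CPM. TUBGCP6-208, a retained-intron form, had 15.8 ± 0.9% and 26.0 ± 3.4%, at 1.82 ± 0.563 and 1.55 ± 0.657 CPM. TUBGCP6-207, a processed transcript, had 7.2 ± 2.6% and 7.3 ± 0.7%, with a level of 0.659 ± 0.378 and 0.325 ± 0.124 CPM, and TUBGCP6-206 was at or near 0 in both groups.

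NEDD1, the protein that targets the complex to centrosomes and spindles (ENSG00000139350.11, chr12:96907223-96953777, plus strand), was at 101, 110.2 and 116 CPM in DMSO and at 57.4, 65.6 and 68.7 CPM after auxin. The groups did not overlap, and the log2 fold change was -0.77 (SE 0.09), 1.71-fold lower. The largest share difference among its 13 transcripts was 4.7 percentage points.

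The small subunits differed less. MZT1 (ENSG00000204899.5, chr13:72708357-72727687, minus strand), a single-transcript gene, was at 20.4, 21.2 and 21.6 CPM in DMSO and at 17.1, 18.3 and 14.98 CPM after auxin (log2 fold change -0.33, SE 0.09, or -0.21 with upper-quartile scaling). MZT2B (ENSG00000152082.13, chr2:130181737-130190729, plus strand) was at 16.5, 17.6 and 18.02 CPM and at 14.0, 14.6 and 14.5 CPM, a log2 fold change of -0.27 (SE 0.07). The direction for MZT2B turned to 0.58 when counts were corrected for GC content, which is 64.7% in its transcripts, the highest of the 10 genes.

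Within MZT2B, the 3-exon coding transcript MZT2B-203 had 56.7%, 58.9% and 62.0% of the TPM in DMSO and 35.7%, 34.8% and 41.5% after auxin. The 2-exon coding transcript MZT2B-204 had 24.7%, 20.6% and 18.2% in DMSO and 37.8%, 36.6% and 38.4% after auxin. Levels went opposite ways, from 10.0 to 5.42 CPM for MZT2B-203 and from 2.85 to 4.36 CPM for MZT2B-204. The near-identical gene MZT2A and the opposite-strand gene SMPD4 share sequence with MZT2B, in 133 and 90 of the 406 windows of 50 bases in MZT2B-203. The posterior SD was at most 152 for MZT2B-203, with estimated counts of 1208.6 or more in each library. For MZT2B-204 it was at most 56.0, with counts of 679.13 or more. The part of the shared sequence in these assignments was not tested.

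Transcript shares shifted by at least 10 percentage points, with no overlap between the groups, in 4 of the 9 genes with more than 1 transcript: TUBG1, TUBG2, TUBGCP6 and MZT2B. Over 14953 such genes passing the filter the share with a shift was 21.7%. The median of the largest share difference was 8.9 percentage points for the 9 genes and 5.6 over all. Shares in TUBGCP2, TUBGCP3, TUBGCP4, TUBGCP5 and NEDD1 differed by 3.2 to 8.9 points at most.

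**Figure D3:**
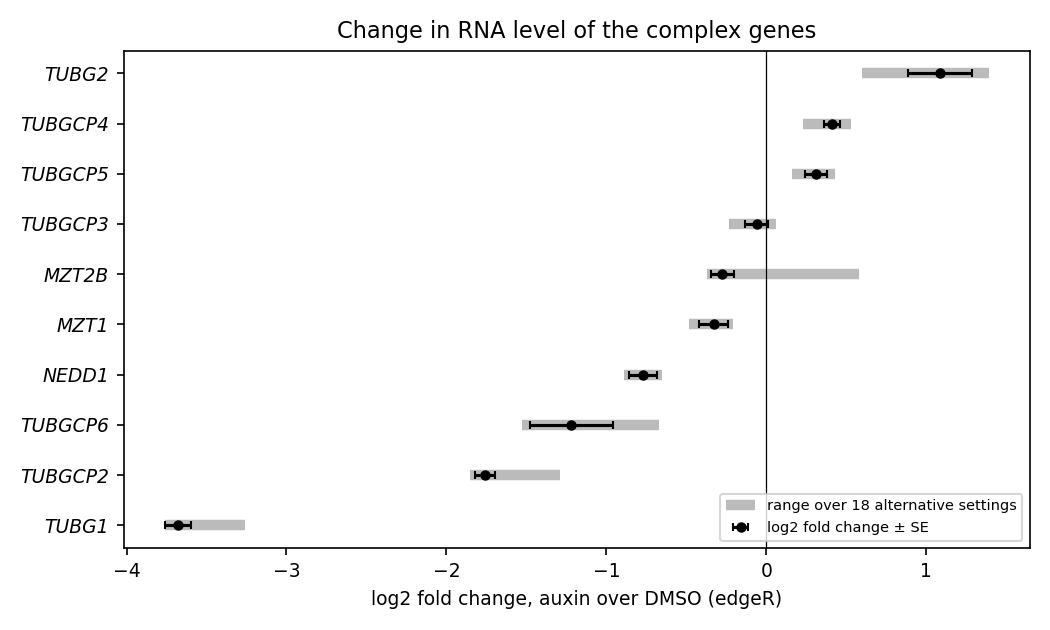
Log2 fold change of each of the 10 genes, auxin over DMSO, from edgeR (points, with bars of 1 SE), and its range over 18 alternative settings (grey). TUBG1 stays between -3.76 and -3.26, while the ranges of TUBGCP3 and MZT2B include 0.

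In length-scaled levels the order of the 10 genes differed between the groups. In DMSO, MZT2B (65.6 ± 12.6 TPM) and TUBG1 (60.9 ± 10.8 TPM) were the most abundant, followed by NEDD1 (38.8 ± 7.58 TPM) and TUBGCP3 (24.5 ± 7.44 TPM). TUBGCP4 (17.3 ± 5.15 TPM), TUBGCP5 (14.5 ± 2.30 TPM), TUBGCP2 (13.6 ± 3.17 TPM) and MZT1 (9.99 ± 1.92 TPM) came next, and TUBG2 (4.56 ± 2.38 TPM) and TUBGCP6 (2.34 ± 1.15 TPM) were lowest. Each gene was above the next in all 3 DMSO libraries except TUBGCP5, which was above TUBGCP2 in 2 of 3.

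After auxin MZT2B (50.4 ± 5.76 TPM) was again the most abundant, and TUBG1 (4.50 ± 0.664 TPM) was near the bottom, above TUBGCP2 (3.85 ± 0.907 TPM) and TUBGCP6 (1.05 ± 0.492 TPM). TUBGCP3, NEDD1 and TUBGCP4, at 20.9 ± 4.48, 20.7 ± 1.82 and 20.3 ± 3.45 TPM, had no fixed order across libraries. TUBGCP5 (16.5 ± 1.56 TPM) followed, and then TUBG2 (7.17 ± 2.13 TPM) and MZT1 (7.11 ± 1.15 TPM), with TUBG2 above MZT1 in 2 of 3 libraries. Standard deviations are over 3 libraries, and TPM was highest in replicate 1 of both groups except for NEDD1 after auxin.

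Several of the genes overlap a gene on the other strand, and whether counting used the strand is not stated. RETREG3 covers 948 bases of TUBG1 on the opposite strand, and its log2 fold change was -0.01 (SE 0.05, edgeR adjusted p = 0.846). TUBGCP4 shares 6711 bases with TP53BP1, which fell by 0.88 on the log2 scale (edgeR adjusted p = 1.62e-05), and 1805 bases with ZSCAN29, which rose by 0.31 (edgeR adjusted p = 0.00713), so these partners of TUBGCP4 went in opposite directions. Of the 6749 windows of 50 bases in TUBGCP4-208, its main coding form, 2786 also occur in TP53BP1 on the opposite strand. ZNF511 over TUBGCP2 fell by 0.65 (edgeR adjusted p = 0.000677) and SMPD4 over MZT2B fell by 1.79 (edgeR adjusted p = 2.89e-05). The posterior SD of the gene's count was at most 0.0% of the count for TUBGCP2 and TUBGCP4 and 0.127% for MZT2B. The part of these partners in the values above was not tested.

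Around the gamma-tubulin pair on chromosome 17, 13 other genes within 100000 bases were tested, of which 5 were called lower and 8 were not called (edgeR), or 8 lower and 1 higher with the replicate block. Their median log2 fold change was -0.35, beside 0.02 over all genes tested. Of all those genes, 25.4% were called higher and 26.9% lower, or 7005 higher and 6789 lower with the block. The 5 neighbours called lower were NAGLU, MLX, PSMC3IP, PLEKHH3 and CNTNAP1, between -2.31 and -0.83, so none was as low as TUBG1.

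Upstream sequence was searched in windows of 250 bases before the RefSeq start (GRCh38.p14), which were given for 9 of the 10 genes. RefSeq starts differ from the GENCODE gene ends printed above, so several windows overlap the gene. The MZT2B window (chr2:130182012-130182261) lies wholly within it. The letters TTTGGCGC, TTTCCCGC, TTTGCCGC or TTTCGCGC, on either strand, forms of the site of E2F factors that drive cell-cycle genes, occurred in TUBG1 alone among the 9, and in 2.79% of all 35116 windows. The match in TUBG1 is shown because TUBG1 had the largest difference. The printed stretch, with bases on either side, lies at chr17:42609641-42609670 on the plus strand. The motif is in capitals, and its own first base is 31 bases before the RefSeq start.
TUBG1 upstream match: ggagctggttgTTTGGCGCctgcgtcttgc
The letters CCAAT, on either strand, occurred in 5 of the 9 (TUBG1, TUBG2, TUBGCP5, MZT1 and MZT2B), beside 32.0% of all windows. The match in TUBG1 does not overlap the E2F letters, and the genes with CCAAT include both higher and lower ones.

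The genes most like TUBG1 across the 6 libraries, by Pearson's r of log2 CPM among 12847 genes, were ARTN, a growth factor of the GDNF family (0.9999), CDC45, a subunit of the replicative helicase (0.9998), MRPS34 of the mitochondrial ribosome (0.9998), AP2M1 of the clathrin adaptor (0.9998) and RALY, an RNA-binding protein (0.9997). Their log2 fold changes were -2.70, -3.27, -1.96, -1.49 and -1.52. The 6 values of each gene form a cluster per group, so r is set mainly by the gap between them, and 981 genes had r above 0.99.

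Of 39 other genes of microtubule nucleation, all of which passed the filter, 2 rose, 25 fell and 12 did not pass the test (edgeR, adjusted p under 0.05), with a median log2 fold change of -0.36 beside 0.02 over all genes. Of all genes tested, 25.4% were called higher and 26.9% lower. With the replicate number as a block, 5 rose and 28 fell. With GC correction the counts were 8 and 22, and with both they were 10 and 26. Over all genes, 5400 were higher and 5224 lower with GC correction, and 7140 and 6583 with both. The list was written with earlier results of these data known. It holds 3 further subunits, 14 recruiting or activating factors, the 8 augmin subunits and 14 other tubulins.

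All 8 subunits of augmin, the complex that docks gamma-tubulin rings on existing microtubules so that new ones branch from them, fell, with a median of -0.67. HAUS5 went from 10.5 ± 1.99 to 1.96 ± 0.578 CPM (log2 fold change -2.42, SE 0.24, edgeR adjusted p = 0.00015). HAUS7 went from 5.26 ± 0.515 to 1.10 ± 0.226 CPM (-2.25, SE 0.17, edgeR adjusted p = 5.15e-05) and HAUS4 from 17.7 ± 1.22 to 4.48 ± 0.0387 CPM (-1.98, SE 0.08, edgeR adjusted p = 4.61e-06). The other 5 subunits fell by smaller amounts, down to -0.27 for HAUS2. With limma on log2(TPM + 1) in place of counts, 5 of the 8 passed, and HAUS5 and HAUS7 fell by 1.33 and 1.48.

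Of the 14 recruiting and activating factors, 10 fell, 1 rose and 3 did not pass, with a median of -0.41. With the replicate block, 11 fell and 1 rose. PCNT, the pericentrin scaffold that holds the complex at centrosomes, went from 32.9 ± 3.08 to 9.56 ± 2.18 CPM (-1.78, SE 0.16, edgeR adjusted p = 0.000117). NINL, a ninein-like centrosomal protein, fell by 0.88 (SE 0.19, edgeR adjusted p = 0.00591), or -0.51 with limma on log2(TPM + 1), and TPX2, a spindle assembly factor, by 0.58 (SE 0.10, edgeR adjusted p = 0.00185). PDE4DIP, the myomegalin gene, rose from 26.6 ± 0.386 to 36.2 ± 1.08 CPM (0.44, SE 0.05, edgeR adjusted p = 0.000455), a call that limma on TPM did not make (0.11 and 0.13), with 0.27 under GC correction.

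The 3 further subunits split. MZT2A, the near-identical partner of MZT2B, fell from 11.8 ± 1.05 to 6.67 ± 0.265 CPM (-0.82, SE 0.09, edgeR adjusted p = 0.000328), a call lost with GC correction, where the log2 fold change was -0.07. ACTB, whose actin lies inside the ring, rose by 0.26 (SE 0.08, edgeR adjusted p = 0.0235), but did not pass without DMSO replicate 2, DMSO replicate 3, auxin replicate 1 or auxin replicate 3. NME7, a kinase family member bound to the ring, was at 21.8 ± 3.20 and 26.9 ± 4.41 CPM (0.30, SE 0.15, edgeR adjusted p = 0.138). It passed with the replicate block, with or without GC correction, and with upper-quartile scaling. It also passed with replicates 2 and 3 alone and without auxin replicate 1.

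Of the 14 other tubulins, 6 fell and 8 did not pass, with a median of -0.11. With the replicate block, 8 fell and 2 rose. TUBB4B, a beta-tubulin, went from 362.4 ± 22.03 to 163.7 ± 12.99 CPM (-1.15, SE 0.08, edgeR adjusted p = 3.62e-05), and TUBB6, another, from 131.2 ± 8.79 to 74.4 ± 3.88 CPM (-0.82, SE 0.07, edgeR adjusted p = 9.17e-05), or -0.59 and -0.30 with GC correction. TUBE1, the epsilon-tubulin of centrioles, fell by 0.72 (SE 0.08, edgeR adjusted p = 0.000365). The abundant TUBA1B and TUBB, at 992.3 and 1615 CPM in DMSO, had log2 fold changes of -0.14 and -0.08 and did not pass, although with the replicate block they did. Both have close paralogs among which reads may be split. The posterior SD of the count was at most 0.141% of the count for TUBA1B and 0.000397% for TUBB.

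**Figure D4:**
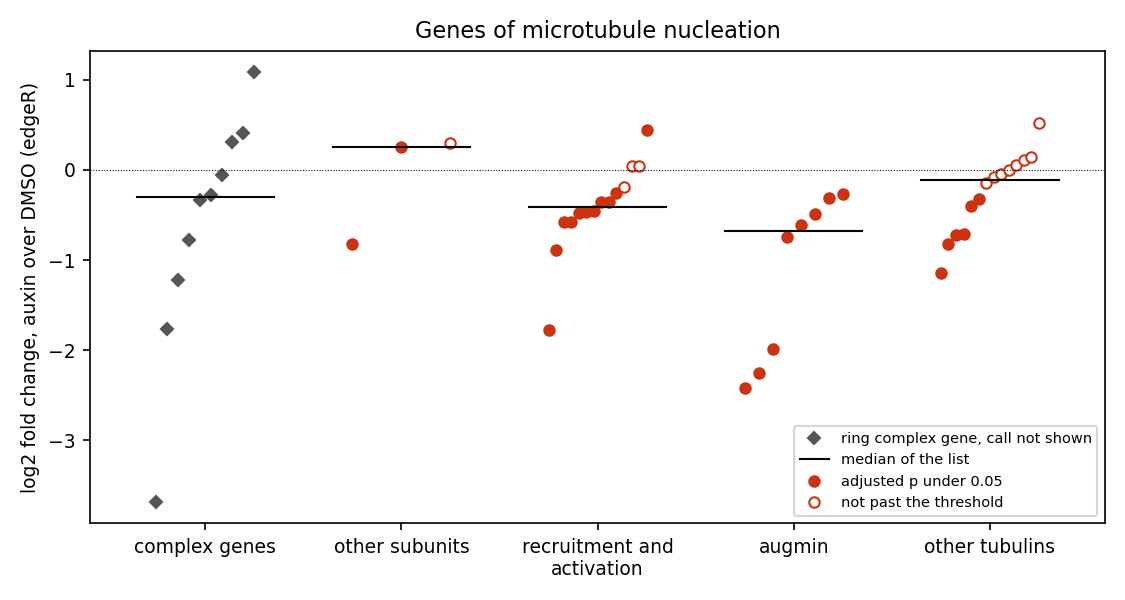
Log2 fold change, auxin over DMSO, of the 10 ring complex genes (grey diamonds, calls not shown) and of the 39 other genes by list (circles, filled where the edgeR adjusted p was under 0.05), with a line at each list's median. The 8 augmin points all lie below 0, at -0.27 or lower.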

How the data were processed

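A stranded kit was used on rRNA-depleted total RNA, and reads were paired-end, per the labels' protocols. The submitters' processing notes name bcl2fastq 2.20, STAR and DESeq2 and the builds GRCh38 and hg38. The annotation, the counting program and its use of strand are not given in the sources used here. Per the file headers, the authors deposited expected counts, TPM, FPKM and a percent for each transcript's share of its gene, with posterior SDs. All 58780 human gene IDs matched GENCODE release 29, and other entries took at most 0.001113% of a library.

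Expected counts were rounded, filtered with filterByExpr, scaled with TMM factors and tested with edgeR 4.0.16 (glmQLFit and glmQLFTest, R 4.3.3), after the script had been tested on simulated data. A gene was called at an adjusted p (Benjamini-Hochberg, 19725 genes) under 0.05. Transcript shares were taken from deposited TPM. Pairs of libraries within a group differed by a chi-square of 38.16 to 577.1 per degree of freedom, so no pair agreed within sampling noise. At this depth that cannot show that the libraries are independent. Each library was taken as 1 replicate from its title. Replicate numbers come from the titles. Deviations from group means of same-numbered libraries correlated at 0.621, 0.241 and 0.249. Libraries of unlike number reached 0.288 (DMSO 3 with auxin 2) and 0.158 (DMSO 2 with auxin 3). The values set replicate 1 apart, but they do not pair replicates 2 and 3 by number. The main fit left the replicate number out, and the block was run as an alternative.

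Alternatives were other scalings, filters, DESeq2 1.42.0, limma 3.58.1 on log2(TPM + 1) and log2(TPM + 0.1), GC-corrected offsets, the replicate block, replicates 2 and 3 alone, and each library left out. The genes, lists and tests were chosen with earlier results of these data known. Of other lists, genes named were up to 3 called genes with the largest difference per direction at a mean CPM of at least 1, every further subunit, and the 5 genes most like TUBG1. TUBA1B, TUBB, HAUS2 and the genes beside TUBG1 were named after their values were seen. Promoter windows are RefSeq's, on GRCh38.p14.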

Additional observations from a re-analysis of the deposited data

How the results depend on the processing

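Over 18 alternative settings, 177 of 180 values of the 10 genes kept their direction. The exceptions were TUBGCP3, at 0.06 under upper-quartile scaling, and MZT2B, at 0.58 under GC-corrected offsets both with and without the replicate block. TUBG1 ranged from -3.76 to -3.26, TUBG2 from 0.60 to 1.39 and TUBGCP2 from -1.85 to -1.29. The TUBG1 share of gamma-tubulin differed by -55.4 to -52.1 percentage points with 1 library left out, and by -54.2, -54.0 and -57.0 with FPKM, posterior mean TPM and counts. Transcript shifts were found in 4 genes without any 1 library and with posterior mean TPM, in 5 at a minimum of 5 points (33.7% of all genes) and in 3 at 20 points (10.1%).

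Upper-quartile scaling moved the median of all genes by 0.12 on the log2 scale, and limma on log2(TPM + 1) and log2(TPM + 0.1) by -0.14 and -0.15. Calls over all genes split into 5010 higher and 5311 lower (48.5% higher), 6534 and 4416 (59.7%) under upper-quartile scaling, and 970 and 2966 (24.6%) or 1017 and 3223 (24.0%) under limma with a pseudocount of 1 or 0.1. With 1 library left out they ranged from 3876 to 4979 higher and from 4493 to 5575 lower. The 2 of 39 pathway genes called higher became 8 with GC correction, 10 with GC correction and the replicate block, 5 with the replicate block, 4 with upper-quartile scaling, 1 with library size alone, 1 without a filter, 0 and 0 under limma (also 0 and 0 at an unadjusted p under 0.05, and 2 under DESeq2), and 1 to 2 with 1 library left out (1 without DMSO replicate 2, DMSO replicate 3 or auxin replicate 3). The 25 called lower became 15 under limma on log2(TPM + 1) and 22 to 26 with 1 library left out. The share of pathway calls that were higher was 7.4%, beside 48.5% over all genes. With GC correction these shares were 26.7% and 50.8%. With the replicate block, 7005 genes were called higher and 6789 lower, and NME7, TUBA1B, TUBB and the marker COL1A1 (lower) gained a call. ACTB lost its call under library size alone, without a filter and under limma, and TUBE1 under limma on log2(TPM + 1). The causes of these changes were not tested. Depth did not limit the 10 genes, each at 780 counts or more per library, but transcripts near 0, such as TUBG1-204 in DMSO, lie within assignment error.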
